A study of Mus musculus with 12 samples.

Results

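The 10 genes described here encode beta-catenin (Ctnnb1), its destruction complex (Apc, Axin1, Gsk3b, Csnk1a1), the SCF ubiquitin ligase that acts on it (Skp1a, Cul1, Rbx1, Btrc) and the nuclear partner Tcf7l2. They were chosen by name from the deposited gene table, and all 10 had a row among its 13775 genes. RNA was measured in muscle satellite cells (SCs) sorted from FoxM1-cKO mice and from their FoxM1fl/fl controls, in 12 libraries of about 800 cells each. FoxM1-cKO mice carry FoxM1fl/fl,Pax7Cre/+: exons 4 to 7 of FoxM1 are flanked by loxP sites in both genotypes, and only the FoxM1-cKO mice carry the Pax7-Cre driver, which limits the deletion to the myogenic lineage and other cells with a history of that driver. The 4 groups were FoxM1-cKO injured, FoxM1fl/fl injured, FoxM1-cKO uninjured and FoxM1fl/fl uninjured, with 3 libraries in each.

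The mice were 2 months old, on a C57BL/6J background. Injured muscle (tibialis anterior and gastrocnemius) had received 50 µl of 1.2% BaCl2, a salt that kills myofibres, and cells were sorted at 48 h post-injury. For the uninjured groups, the labels leave unclear whether the muscle was injected with PBS or left alone. The labels do not say which mouse a library came from, so p-values here measure the spread between libraries, which may be technical.

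In the canonical Wnt pathway, Apc and Axin1 form a scaffold on which the kinases encoded by Csnk1a1 and Gsk3b phosphorylate beta-catenin. The F-box protein encoded by Btrc (beta-TrCP) recognises the phosphorylated protein, and the SCF core of Skp1, Cul1 and Rbx1 ubiquitinates it, which sends it to the proteasome. When a Wnt ligand stops this, beta-catenin enters the nucleus and activates genes through TCF/LEF factors such as Tcf7l2. In muscle the pathway is known for its part in SC activation and in the passage of myoblasts to differentiation. The destruction complex was of interest in this study as a possible point at which FoxM1 acts on beta-catenin.

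The reads behind Ctnnb1 matched a transcript of 3623 bases (Ctnnb1-201, chromosome 9). The stretch of it below, codons 28 to 49, is shown because the kinases of the complex and beta-TrCP act there. Capitals mark the 6 codons (32 to 37) that encode the beta-TrCP recognition motif. The motif was found once in the translated reading frame of 781 codons and holds serines that Gsk3b phosphorylates.
Ctnnb1 coding strand: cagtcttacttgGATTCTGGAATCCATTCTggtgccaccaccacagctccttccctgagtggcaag

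RefSeq promoter windows of 300 bases (build GRCm38.p6, 250 bases before to 50 after a start) were found for 6 members, 10 windows in all, with Skp1a matched by its synonym to Skp1. They were searched on both strands for the forkhead letters TAAACAA, for the same with a leading C (CAAACAA), with T in place of the inner C (TAAATAA) and with both of these changes (CAAATAA). They were also searched for the TCF letters CTTTGAA, for the same with T at the end (CTTTGAT), with T just before the end (CTTTGTA) and with both (CTTTGTT). No forkhead match overlapped a TCF match in these windows. No window was used for Apc, Axin1, Csnk1a1 and Btrc, so their promoters were not searched and nothing is said of them. Of the 10 windows, 2 held a forkhead match, both of Tcf7l2, beside 17.0% of all 32851 windows in the table. A TCF match was found in 2 windows, one of Skp1a and one of Tcf7l2, beside 16.9% of all windows. Both Tcf7l2 windows, on the plus strand, are shown because the gene was higher in FoxM1-cKO after injury, with the matches in capitals. A match says only that the letters are there.
Tcf7l2 window at chr19:55741560-55741859, forkhead match 66 bases before the start: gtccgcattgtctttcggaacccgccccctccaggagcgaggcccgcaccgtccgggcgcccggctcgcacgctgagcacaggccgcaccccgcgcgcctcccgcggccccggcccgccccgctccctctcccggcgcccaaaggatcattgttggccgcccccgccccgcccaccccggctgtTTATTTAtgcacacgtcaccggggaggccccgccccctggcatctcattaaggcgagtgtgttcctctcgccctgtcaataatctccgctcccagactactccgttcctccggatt
Tcf7l2 window at chr19:55895071-55895370, forkhead match 30 and TCF match 14 bases before the start: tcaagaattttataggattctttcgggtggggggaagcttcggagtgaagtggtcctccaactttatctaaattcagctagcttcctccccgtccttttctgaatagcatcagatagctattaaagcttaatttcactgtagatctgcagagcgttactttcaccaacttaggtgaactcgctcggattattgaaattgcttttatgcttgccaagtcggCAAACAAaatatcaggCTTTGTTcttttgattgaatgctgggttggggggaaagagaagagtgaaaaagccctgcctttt

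Values are FPKM, fragments per kilobase of transcript scaled to the depth of the library, so levels can be compared between genes. Library depth, recovered from the step that 1 read makes in these values, was 1692983 to 2854538 reads in FoxM1-cKO injured, 907558 to 1284056 in FoxM1fl/fl injured, 170701 to 238174 in FoxM1-cKO uninjured and 174827 to 642009 in FoxM1fl/fl uninjured libraries. Between 1178 and 7577 genes were above 0 in a library and 154 genes were above 0 in all 12. An uninjured value of 0 is therefore a weak statement. Fewer cells that express a gene and less of its RNA per cell cannot be told apart in such pools.

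In 3 of the groups, 1 library behaved like a weighted sum of the other 2 of its group. FoxM1fl/fl injured 1 held 100% of the 436 genes that had at least 20 FPKM in library 2 and 0 in library 3, at a median of 0.676 times their level. It likewise held 99.4% of the 319 genes with the opposite pattern, at 0.322 times. The same shares were 92.9% and 96.7% in FoxM1-cKO uninjured 2 and 98.0% and 94.3% in FoxM1fl/fl uninjured 1, but 33.3% to 48.6% in FoxM1-cKO injured libraries. Many member values followed suit. Gsk3b had 484 FPKM in FoxM1fl/fl injured 1, where the weighted sum gives 477 FPKM, and Skp1a had 874 FPKM in FoxM1fl/fl uninjured 1, where it gives 849 FPKM. Apc departed from it, with 4.11 FPKM in FoxM1fl/fl injured 1 and a weighted sum of 8.39 FPKM, as did Cul1 there (19.7 and 13.3 FPKM), Rbx1 in FoxM1fl/fl uninjured 1 (1.01 and 6.51 FPKM) and Skp1a in FoxM1-cKO uninjured 2 (3.30 and 1.26 FPKM). Such libraries carry little evidence of their own, so the calls are also given without these 3, a choice made after seeing the data. The cause was not tested.

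**Figure D1:**
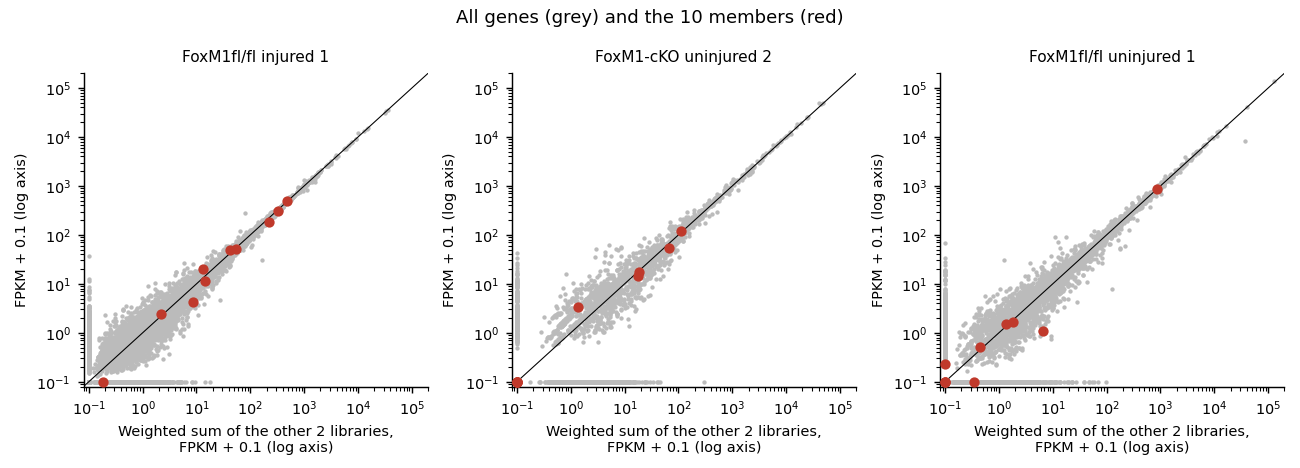
FPKM of every gene (grey) and of the 10 members (red) in the 3 libraries that follow a weighted sum (y axis) against that sum of the other 2 libraries of the group (x axis), both plus 0.1 on log axes, with the line of equality. Gsk3b (484 against 477 FPKM) lies on the line in FoxM1fl/fl injured 1, and Apc (4.11 against 8.39 FPKM) lies below it.

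The deleted gene should check the labels, but its row could not be used for that. It listed 3.48, 1.28 and 0.832 FPKM in FoxM1-cKO injured against 32.8, 29.4 and 42.0 FPKM in FoxM1fl/fl injured libraries, and 0 in all FoxM1-cKO uninjured against 5.48, 8.95 and 7.38 FPKM in FoxM1fl/fl uninjured libraries. Those groups do not overlap. However, 1578 of 1583 genes with at least 6 testable values had a transcript length at which all of them are whole reads, within 0.02 reads plus 0.1%, and FoxM1 was 1 of the 5 that had none. Its symbol is also the 1 symbol in the table with a capital after a small letter. The knockout state of a library was thus not checked by an independent value, and the genotypes below are those of the labels.

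As a check of cell type, Itga7, which encodes the alpha7-integrin used in the sort, was above 0 in 2 of the 12 libraries (0.174 and 3.02 FPKM, both FoxM1-cKO injured), and Cd34 in 6. Of the 18 satellite cell markers with a row, 11 to 15 were above 0 in FoxM1-cKO injured, 6 to 13 in FoxM1fl/fl injured, 2 to 4 in FoxM1-cKO uninjured and 2 to 6 in FoxM1fl/fl uninjured libraries, and they summed to 124 to 969, 29.0 to 2800, 10.8 to 602 and 109 to 193 FPKM in the same order. Other cell types' markers moved with the groups. Summed over 12 fibro-adipogenic markers, the level was 3460 to 4030 FPKM in FoxM1-cKO injured against 1050 to 1130 FPKM in FoxM1fl/fl injured libraries, and 3840 to 5990 FPKM in FoxM1-cKO uninjured against 5320 to 13200 FPKM in FoxM1fl/fl uninjured libraries. Summed over 21 myofibre markers, it was 62300 to 90200 FPKM in FoxM1-cKO uninjured against 8200 to 43700 FPKM in FoxM1fl/fl uninjured libraries, and at most 2470 FPKM in every injured library. The 13 macrophage and leukocyte markers were all at 0 in FoxM1-cKO uninjured libraries, against a sum of 0 to 1610 FPKM in FoxM1fl/fl uninjured libraries, and summed to 103 to 989 FPKM in FoxM1-cKO injured against 627 to 2080 FPKM in FoxM1fl/fl injured libraries. The part of these cells in the results below was not tested.

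Differences were tested with limma on log2(FPKM + 1) over the 4956 genes with at least 1 FPKM in 3 or more libraries. Fold changes on this scale understate the change of low genes. Of the 10 members, 8 passed this filter and 2 did not (Axin1 and Btrc). Apc reached 1 FPKM in FoxM1fl/fl injured libraries alone and Tcf7l2 in FoxM1-cKO injured libraries alone, so both passed the filter through the group in which they are high. Of the 120 member values, 49 were 0: 8 of 30 in FoxM1-cKO injured, 5 in FoxM1fl/fl injured, 20 in FoxM1-cKO uninjured and 16 in FoxM1fl/fl uninjured libraries.

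The members were not a set with 1 level. By median, the most abundant was Skp1a in FoxM1-cKO injured (119 FPKM), Gsk3b in FoxM1fl/fl injured (484 FPKM), Gsk3b in FoxM1-cKO uninjured (118 FPKM) and Skp1a in FoxM1fl/fl uninjured libraries (874 FPKM). Ctnnb1, the substrate of the complex, was 6th in FoxM1-cKO injured (3.00 FPKM) and 7th in FoxM1fl/fl injured libraries (11.6 FPKM). The ranges of neighbours in these orders overlapped, except between Cul1 and Apc in FoxM1-cKO injured and between Apc and Btrc in FoxM1fl/fl injured libraries.

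**Figure D2:**
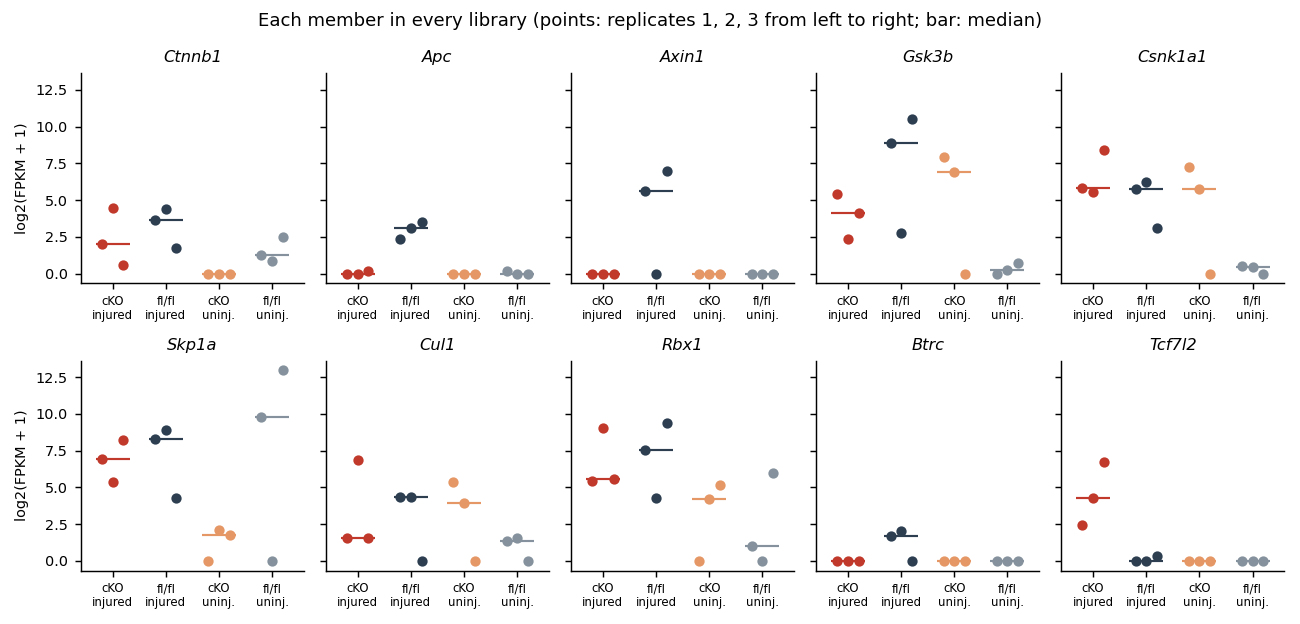
Level of each member, log2(FPKM + 1), in every library: points are replicates 1, 2 and 3 from left to right, bars are group medians, and cKO stands for FoxM1-cKO and fl/fl for FoxM1fl/fl. Apc is high in FoxM1fl/fl injured libraries alone (4.11 to 10.2 FPKM) and Tcf7l2 in FoxM1-cKO injured libraries alone (4.50 to 104 FPKM), while the points of most other members spread within a group as widely as between groups.

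Ctnnb1 encodes beta-catenin itself (ENSMUSG00000006932, chr9:120929216-120960507, plus strand). It had 3.00, 20.7 and 0.535 FPKM in FoxM1-cKO injured libraries, against 11.6, 19.99 and 2.43 FPKM in FoxM1fl/fl injured libraries. The groups overlap, and the difference of -0.92 on the log2 scale (95% interval -3.33 to 1.48) did not pass the test (limma, adjusted p = 0.669). In the uninjured state it was at 0 in all FoxM1-cKO libraries, against 1.38, 0.860 and 4.74 FPKM in FoxM1fl/fl libraries, groups that do not overlap but rest on 0 against 8 reads. Over the FoxM1-cKO uninjured group, 3 reads would be 1.42 FPKM, close to the 1.56 FPKM of the FoxM1fl/fl uninjured group, so the difference (-1.56, 95% interval -3.96 to 0.85, adjusted p = 0.583) was not detectable at this depth.

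With injury, Ctnnb1 was higher in every FoxM1-cKO injured than in every FoxM1-cKO uninjured library, without passing the test (log2 difference 2.35, 95% interval -0.05 to 4.75, limma adjusted p = 0.134). In FoxM1fl/fl mice the injured and uninjured ranges overlap (1.72, 95% interval -0.68 to 4.12, adjusted p = 0.247). No change in the mRNA of beta-catenin was thus called in any comparison. The interval between genotypes after injury leaves room for several-fold changes either way, and the other 3 mainly for a lower level in FoxM1-cKO uninjured mice or a higher one after injury.

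Apc is a scaffold that holds beta-catenin and Axin1 together (ENSMUSG00000005871, chr18:34220924-34322552, plus strand). It had 0, 0 and 0.118 FPKM in FoxM1-cKO injured libraries, against 4.11, 7.57 and 10.2 FPKM in FoxM1fl/fl injured libraries. These are 0, 0 and 3 reads in FoxM1-cKO against 65, 120 and 114 reads in FoxM1fl/fl, although the FoxM1-cKO libraries are the deeper ones. The groups do not overlap, and Apc fell by 2.92 on the log2 scale in FoxM1-cKO (SE 0.48, limma adjusted p = 0.00465). Per read sequenced the ratio was 0.00527, with a 95% exact interval of 0.00108 to 0.0156 that covers counting error only.

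Uninjured libraries held almost no Apc: 0 in all 3 FoxM1-cKO libraries, against 0.135, 0 and 0 FPKM in FoxM1fl/fl libraries, the first of them 1 read. Injury therefore went with a rise in FoxM1fl/fl mice (log2 difference 2.92, SE 0.48, limma adjusted p = 0.0022), where the groups do not overlap. In FoxM1-cKO mice the injured and uninjured libraries differed by 0.05 (95% interval -0.99 to 1.1, adjusted p = 0.950). The test of the difference itself, the FoxM1-cKO effect in injured minus uninjured mice, gave -2.86 (SE 0.69, adjusted p = 0.0562) and did not pass. Both calls share the FoxM1fl/fl injured libraries, so neither supports the other.

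Without the 3 weighted-sum libraries the Apc differences were as large, -3.24 between genotypes after injury and 3.29 for injury in FoxM1fl/fl, but neither passed (limma adjusted p = 0.25 and 0.16), and no gene in the table did. In the fit to the injured groups alone, the genotype difference was -2.92 with an adjusted p of 0.183, and when every gene was tested, without the filter, it had one of 0.0682. Quantile normalization gave -1.58 between genotypes (adjusted p = 0.0686) and 0.71 for injury (adjusted p = 0.313).

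Axin1, the second scaffold and the limiting subunit of the complex (ENSMUSG00000024182, chr17:26138688-26195811, plus strand), was above 0 in 2 libraries. It had 0 FPKM in all 3 FoxM1-cKO injured libraries, against 48.1, 0 and 128 FPKM in FoxM1fl/fl injured libraries, and 0 in all uninjured libraries. The value of 48.1 FPKM is in the weighted-sum library, where the sum gives 41.1 FPKM. An exact two-sided permutation test between genotypes after injury gave p = 0.4, where 3 against 3 libraries cannot go below 0.1.

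Gsk3b, the kinase that completes the phosphorylation of beta-catenin (ENSMUSG00000022812, chr16:38089001-38246084, plus strand), had 42.4, 4.20 and 16.3 FPKM in FoxM1-cKO injured libraries, against 484, 5.91 and 1470 FPKM in FoxM1fl/fl injured libraries. The groups overlap, and the difference of -3.43 (95% interval -8.12 to 1.25, limma adjusted p = 0.371) did not pass. In the uninjured state the order was the other way round, with 249, 118 and 0 FPKM in FoxM1-cKO libraries, against 0, 0.188 and 0.689 FPKM in FoxM1fl/fl libraries (4.62, 95% interval -0.07 to 9.30, adjusted p = 0.272). The FoxM1-cKO effect in injured minus uninjured mice was -8.05 (SE 3.07, adjusted p = 0.158).

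Gsk3b rose with injury in FoxM1fl/fl mice by 7.08 on the log2 scale (SE 2.17, limma adjusted p = 0.0395), and those groups do not overlap. The 3 FoxM1fl/fl injured libraries themselves span 5.91 to 1470 FPKM. The call was lost in 9 of the fits that leave out 1 library, with adjusted p up to 0.153 (without FoxM1fl/fl injured replicate 1), and without the 3 weighted-sum libraries (6.15, adjusted p = 0.417). In FoxM1-cKO mice, where an uninjured library already had 249 FPKM, the injury difference was -0.98 (95% interval -5.66 to 3.71, adjusted p = 0.741).

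Csnk1a1, the priming kinase (ENSMUSG00000024576, chr18:61555274-61590061, plus strand), had 56.6, 47.0 and 337 FPKM in FoxM1-cKO injured libraries, against 52.0, 75.0 and 7.83 FPKM in FoxM1fl/fl injured libraries. In the uninjured state it had 152, 53.8 and 0 FPKM in FoxM1-cKO libraries, against 0.408, 0.382 and 0 FPKM in FoxM1fl/fl libraries. It thus shared with Gsk3b a pair of high FoxM1-cKO uninjured libraries and values near 0 in FoxM1fl/fl uninjured libraries, and in both genes 1 of that pair is the weighted-sum library. Neither genotype difference passed (1.57, limma adjusted p = 0.625, after injury, and 4.03, adjusted p = 0.216, uninjured). Injured exceeded uninjured in every FoxM1fl/fl library, at 4.72 (95% interval 1.05 to 8.39) and an adjusted p of 0.0607.

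Skp1a, the adaptor that joins F-box proteins to the cullin (ENSMUSG00000036309, chr11:52231995-52246858, plus strand), spread the most. It had 119, 39.7 and 299 FPKM in FoxM1-cKO injured libraries, against 314, 480 and 18.2 FPKM in FoxM1fl/fl injured libraries. It had 0, 3.30 and 2.39 FPKM in FoxM1-cKO uninjured libraries, against 874, 0 and 8110 FPKM in FoxM1fl/fl uninjured libraries. A range of 0 to 8110 FPKM within 1 group left the uninjured genotype difference of -6.30 (95% interval -11.81 to -0.79) short of the threshold (limma adjusted p = 0.200), and it passed without FoxM1fl/fl uninjured replicate 2, the library at 0 (-10.09, adjusted p = 0.00643). In FoxM1-cKO mice every injured library was above every uninjured one, by 5.54 (95% interval 0.03 to 11.05, adjusted p = 0.125).

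Cul1, the scaffold of the ligase (ENSMUSG00000029686, chr6:47453398-47526139, plus strand), had 1.99, 117 and 1.99 FPKM in FoxM1-cKO injured libraries, against 19.7, 19.7 and 0 FPKM in FoxM1fl/fl injured libraries. In the uninjured state it had 40.8, 14.6 and 0 FPKM in FoxM1-cKO libraries, against 1.58, 1.97 and 0 FPKM in FoxM1fl/fl libraries. All groups overlap, and its 4 differences lay between 0.23 and 2.14 with adjusted p of at least 0.420 (limma).

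Rbx1, the RING subunit that recruits the E2 enzyme (ENSMUSG00000022400, chr15:81466296-81476369, plus strand), had 41.5, 535 and 47.8 FPKM in FoxM1-cKO injured libraries, against 187, 18.8 and 655 FPKM in FoxM1fl/fl injured libraries. In the uninjured state it had 0, 17.5 and 35.5 FPKM in FoxM1-cKO libraries, against 1.01, 0 and 62.2 FPKM in FoxM1fl/fl libraries. It was higher after injury by 3.56 in FoxM1-cKO (limma adjusted p = 0.191), where the groups do not overlap, and by 4.75 in FoxM1fl/fl mice (adjusted p = 0.0860), where they do, and passed in neither.

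Btrc, the F-box protein that reads the motif printed above (ENSMUSG00000025217, chr19:45363734-45530013, plus strand), was above 0 in FoxM1fl/fl injured libraries 1 and 2 alone. It had 0 FPKM in all FoxM1-cKO injured libraries, against 2.31, 3.13 and 0 FPKM in FoxM1fl/fl injured libraries (exact two-sided permutation test, p = 0.4), and 0 in all uninjured libraries. Again 1 of the 2 values is in the weighted-sum library, where the sum gives 2.12 FPKM.

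Tcf7l2 (ENSMUSG00000024985, chr19:55741820-55933654, plus strand), the TCF factor through which beta-catenin reaches DNA, had the reverse pattern of Apc. It had 4.50, 18.6 and 104 FPKM in FoxM1-cKO injured libraries, against 0, 0 and 0.267 FPKM in FoxM1fl/fl injured libraries, the last of them 1 read. The groups do not overlap, and Tcf7l2 rose by 4.38 on the log2 scale in FoxM1-cKO (SE 0.92, limma adjusted p = 0.0117). Per read sequenced the ratio was 562, with a 95% exact interval of 101 to 22200 for counting error only. Of the 1069 FoxM1-cKO reads 886 were in replicate 3, and without it the ratio was 140 (24.8 to 5550). The 3 FoxM1-cKO libraries themselves span 4.50 to 104 FPKM. In the mouse Tcf7l2 is also known as a marker of muscle connective tissue fibroblasts, and the fibro-adipogenic sum above was higher in FoxM1-cKO injured than in FoxM1fl/fl injured libraries. In uninjured libraries the sum was 3840 to 13200 FPKM and Tcf7l2 was at 0, where 3 reads over the FoxM1-cKO group would be 1.25 FPKM. The markers in the sum differed. After injury Col1a2 was higher in every FoxM1-cKO library (2210, 2520 and 1840 against 449, 454 and 437 FPKM in FoxM1fl/fl). So were Col1a1, Col3a1, Pdgfra, Lum and Dpt. Dcn overlapped (13.8, 254 and 63.0 against 120, 160 and 44.6 FPKM), as did Gsn, Serpinf1, Ly6a and Mfap5, and Cd55 was at 0. Pdgfra had 45.4, 196 and 13.6 FPKM in FoxM1-cKO injured and at most 3.35 FPKM in uninjured libraries. Serpinf1 had 1240, 201 and 536 FPKM in FoxM1-cKO injured and 7010, 7570 and 2910 FPKM in FoxM1fl/fl uninjured libraries. Whether fibroblasts carried the Tcf7l2 reads was not tested.

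All uninjured libraries listed Tcf7l2 at 0, in both genotypes. In FoxM1-cKO mice it rose with injury by 4.49 (SE 0.92, limma adjusted p = 0.00517), at least 31.4-fold per read against a floor of 3 reads over the FoxM1-cKO uninjured group, and at least 7.8-fold without FoxM1-cKO injured replicate 3. Leaving out any other 1 library put this bound at 18.5 to 52.5. The bound pools the reads of each group, so it leaves out the spread between libraries. In FoxM1fl/fl mice the injury difference was 0.11 (95% interval -1.88 to 2.11, adjusted p = 0.965). The FoxM1-cKO effect in injured minus uninjured mice was 4.38 (SE 1.31, adjusted p = 0.0890) and did not pass. Without the 3 weighted-sum libraries the differences were 4.32 between genotypes after injury (adjusted p = 0.383) and 4.49 for injury in FoxM1-cKO (adjusted p = 0.153). The genotype call was also lost without FoxM1fl/fl injured replicate 1 alone (4.32, adjusted p = 0.0729), when every gene was tested (4.38, adjusted p = 0.0658) and in the fit to the injured groups alone (4.38, adjusted p = 0.205). The injury call was lost in the fit to the FoxM1-cKO groups alone (4.49, adjusted p = 0.0603). Quantile normalization ended both (2.71 and 2.33, adjusted p = 0.12 and 0.149).

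**Figure D3:**
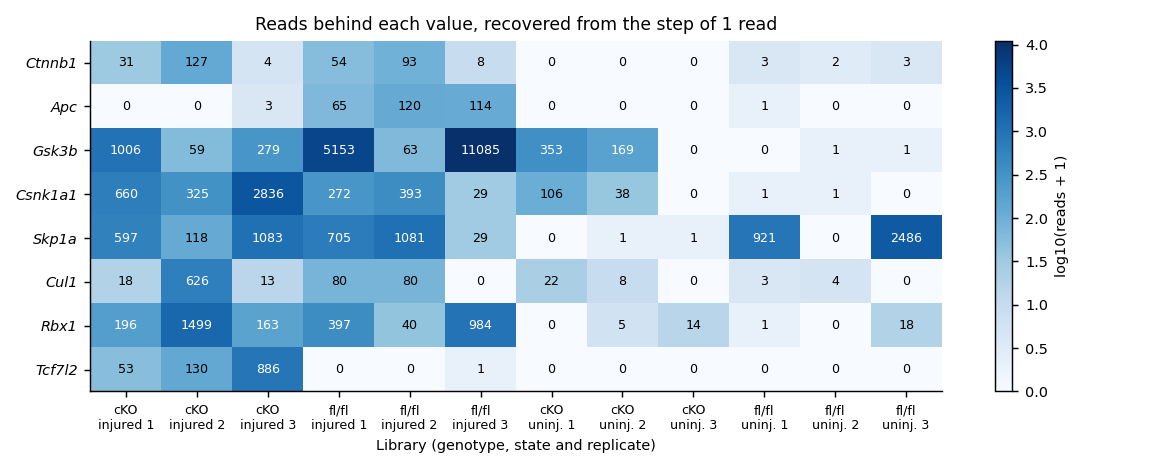
Reads behind each value of the 8 members whose reads could be recovered, by library (columns, cKO for FoxM1-cKO and fl/fl for FoxM1fl/fl), coloured by log10(reads + 1). Apc rests on 65, 120 and 114 reads in FoxM1fl/fl injured libraries and on at most 3 in any other, and the uninjured libraries hold 0 to 3 Ctnnb1 reads each.

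Taking the comparisons in turn, 0 of the 8 tested members were called between genotypes in uninjured mice, where 0.868% of the 4956 tested genes were called higher and 0.666% lower (2 members, Skp1a and Csnk1a1, had an unadjusted p under 0.05 by limma). After injury 1 was called higher (Tcf7l2) and 1 lower (Apc), beside 5.15% and 2.66% of tested genes. For injury, 2 were called higher in FoxM1fl/fl mice (Apc and Gsk3b) beside 18.8% of tested genes higher and 1.92% lower, and 1 in FoxM1-cKO mice (Tcf7l2) beside 23.4% higher and 1.15% lower. In the test of the FoxM1-cKO effect in injured minus uninjured mice 0 members passed, beside 1.09% of tested genes (3 had an unadjusted p under 0.05). The median log2 difference of the members was 0.40 between genotypes in uninjured and -0.35 in injured mice, beside 0.00 and 0.32 over all tested genes. For injury it was 2.43 in FoxM1fl/fl and 2.31 in FoxM1-cKO mice, beside 1.51 and 1.68 over all tested genes.

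Groups that do not overlap were found for 1 of the 8 members between genotypes in uninjured mice (7.1% of tested genes) and for 2 after injury (23.1%). For injury they were found for 3 in FoxM1fl/fl (35.4%) and 4 in FoxM1-cKO mice (46.2%). These shares are near those of genes at large.

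**Figure D4:**
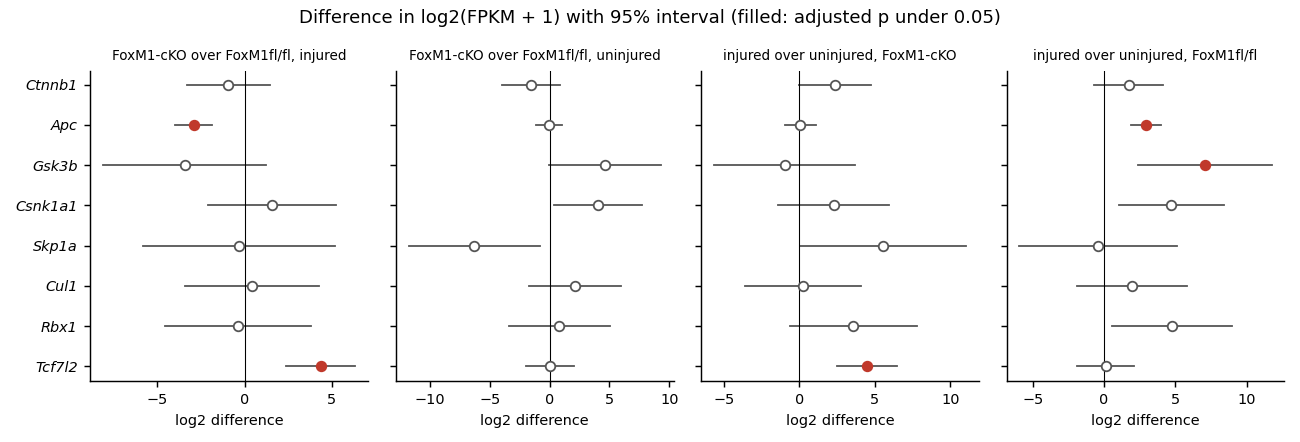
Difference in log2(FPKM + 1) of the 8 tested members in 4 comparisons, with 95% intervals; filled points have an adjusted p under 0.05. Between genotypes after injury Apc (-2.92) and Tcf7l2 (4.38) are filled, and the interval of Gsk3b (-8.12 to 1.25) is among the widest.

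The rest of the pathway was followed in 8 lists of other genes, 181 in all, of which 126 had a row and 67 passed the filter. Its upper end was nearly untested: of 26 Wnt ligand and secretion genes 5 had a row and 1 (Wls) was tested, and of 21 receptor and Dishevelled genes 17 had a row and 1 (Ryk) was tested. Neither was called in any comparison. Between genotypes in uninjured mice 0 of the 67 were called higher and 1 lower. After injury 4 were called higher and 1 lower, 7.46% in either direction beside 7.81% of all tested genes, with a median log2 difference of 0.31 beside 0.32 over all tested genes.

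The 1 gene lower in uninjured FoxM1-cKO mice was Ppp2r5e, a regulatory subunit of the phosphatase PP2A. It had 0 FPKM in all FoxM1-cKO uninjured libraries, against 165, 6.15 and 1630 FPKM in FoxM1fl/fl uninjured libraries (log2 difference -6.96, SE 1.54, limma adjusted p = 0.0407). Without the 3 weighted-sum libraries the difference was -6.75, with an adjusted p of 0.975.

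Of the 5 calls after injury, 4 were among the SCF and other cullin-RING ligase genes, the longest list with 27 of the 67 tested genes, and lists were not tested against each other. Cand1 and Fst reached 1 FPKM in FoxM1-cKO injured libraries alone and Dcun1d1 in FoxM1fl/fl injured libraries alone, so these 3 passed the filter through the group in which they are high. Keap1, the substrate adaptor of a Cul3 ligase, had 2.52, 99.4 and 32.6 FPKM in FoxM1-cKO injured libraries and was listed at 0 in all FoxM1fl/fl injured libraries (4.51, limma adjusted p = 0.0366). In the uninjured state Keap1 was at 0 in all FoxM1-cKO libraries, against 6.45, 6.90 and 0 FPKM in FoxM1fl/fl libraries. Cand1, which exchanges F-box proteins on Cul1, had 11.7, 1.75 and 45.0 FPKM in FoxM1-cKO injured libraries, against 0.101, 0 and 0.284 FPKM in FoxM1fl/fl injured libraries (3.38, adjusted p = 0.0242). Cops6, a subunit of the COP9 signalosome that removes Nedd8 from cullins, was higher too (3.06, adjusted p = 0.0460).

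Dcun1d1, which promotes the attachment of Nedd8 to cullins, moved the other way. It had 0.281, 0.474 and 0 FPKM in FoxM1-cKO injured libraries, against 6.11, 2.35 and 11.9 FPKM in FoxM1fl/fl injured libraries (-2.45, limma adjusted p = 0.0155). The fifth call was Fst, encoding follistatin and the 1 gene called among 10 tested beta-catenin/TCF targets. It had 18.4, 13.8 and 2.23 FPKM in FoxM1-cKO injured libraries and was listed at 0 in all FoxM1fl/fl injured libraries (3.28, adjusted p = 0.00817). No value is given here for commonly used readouts of the pathway such as Axin2 and Lef1. Without the 3 weighted-sum libraries all 5 kept their direction and none passed (limma adjusted p of 0.375 to 0.526).

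**Figure D5:**
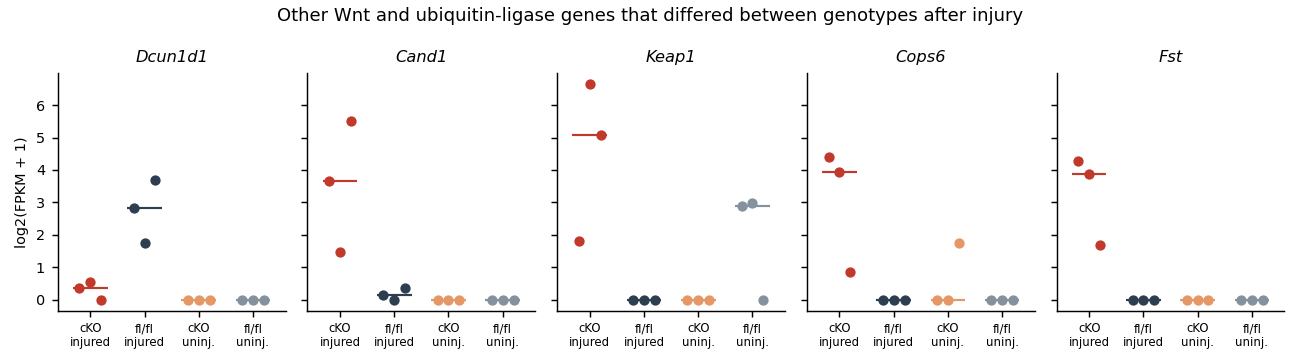
Level, log2(FPKM + 1), of the 5 other pathway genes called between genotypes after injury, drawn as in the plot of the members by library. Keap1, Cand1, Cops6 and Fst are higher in every FoxM1-cKO injured than in every FoxM1fl/fl injured library, and Dcun1d1 is lower in every one.

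With injury, 12 of the 67 genes rose and 2 fell in FoxM1fl/fl mice, and 19 rose and 2 fell in FoxM1-cKO mice, shares of 20.9% and 31.3% in either direction beside 20.8% and 24.5% of all tested genes. The median log2 difference was 1.61 in FoxM1fl/fl and 2.06 in FoxM1-cKO mice, beside 1.51 and 1.68 over all tested genes. Of the genes called, Dcun1d1 in FoxM1fl/fl and Cand1, Cul5, Fst and Tnks2 in FoxM1-cKO mice reached 1 FPKM in that genotype's injured libraries alone. They passed the filter through the group in which they are high. Tgfb2, Tgfb3, Ruvbl1, Nedd8 and Cdh13, among others, reached 1 FPKM only in injured libraries, of both genotypes. These genes thus passed the filter through the injured state, in which they are high. Without the 3 weighted-sum libraries none of these 35 calls passed, all with the same direction, at limma adjusted p of 0.164 to 0.457 in FoxM1fl/fl and 0.077 to 0.288 in FoxM1-cKO mice. Among the beta-catenin/TCF targets, Tgfb2, a TGF-beta ligand, had 313, 197 and 132 FPKM in FoxM1-cKO injured libraries, against 0, 0 and 0.821 FPKM in FoxM1-cKO uninjured libraries (7.37, limma adjusted p = 0.00146). It also rose in FoxM1fl/fl mice, to 104, 169 and 13.6 FPKM in injured libraries, against 0 in all FoxM1fl/fl uninjured libraries (6.0, adjusted p = 0.0038). Cd44, a hyaluronan receptor, rose in FoxM1-cKO (4.79, adjusted p = 0.00898) and in FoxM1fl/fl mice (5.14, adjusted p = 0.00787). Tgfb3 and Fst rose in FoxM1-cKO mice (4.08 and 3.28, adjusted p = 0.00308 and 0.00402). Without being called, Tgfb3 was also higher in FoxM1fl/fl injured (3.12, 5.24 and 2.94 FPKM) than in FoxM1fl/fl uninjured libraries (0 in all). It had 20.4, 12.1 and 16.2 FPKM in FoxM1-cKO injured libraries. The injured genotypes thus do not overlap for Tgfb3, as for 23.1% of tested genes, and it was not called between them. For Tgfb2 they overlap.

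Of the nuclear partners, Ruvbl1, an ATPase that binds beta-catenin, rose with injury in FoxM1fl/fl mice, to 297, 239 and 424 FPKM in injured libraries, against 0 in all uninjured libraries (8.29, limma adjusted p = 0.00238). In FoxM1-cKO mice Ruvbl1 had 0, 83.2 and 41.4 FPKM in injured libraries, against 0 in all uninjured libraries, and was not called. The corepressor gene Ctbp1 rose in FoxM1-cKO mice, to 369, 1300 and 121 FPKM in injured libraries, against 0 in all FoxM1-cKO uninjured libraries (8.60, adjusted p = 0.003). In FoxM1fl/fl mice Ctbp1 had 104, 1.95 and 349 FPKM in injured and 0.926, 2.6 and 0 FPKM in uninjured libraries, and was not called. Of the catenins and cadherins, Ctnna1 (alpha-catenin) rose in FoxM1-cKO mice (5.34, adjusted p = 0.0129) and Cdh13 in FoxM1fl/fl mice (5.60, adjusted p = 0.0435). In FoxM1fl/fl mice Ctnna1 had 47.3, 83.8 and 0.894 FPKM in injured and 0, 0 and 1.55 FPKM in uninjured libraries, and was not called. Cdh13 had 288, 395 and 0 FPKM in FoxM1fl/fl injured libraries, against 0 in all FoxM1fl/fl uninjured libraries, so the groups overlap, and 288 FPKM is in the weighted-sum library. Among antagonists, Sfrp1, which binds Wnt ligands, rose in FoxM1fl/fl mice (2.07, adjusted p = 0.0413). It had 3.03, 0.534 and 10.8 FPKM in FoxM1fl/fl injured libraries, against 0 in all FoxM1fl/fl uninjured libraries. At levels this low, a value of 0 in the shallower uninjured libraries is a weak statement.

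The genes that fell with injury were Ppp2r5e and Csnk2b in FoxM1fl/fl mice (-6.37 and -6.14, limma adjusted p = 0.0134 and 0.043) and Pygo2 and Aes in FoxM1-cKO mice (-3.50 and -8.26, adjusted p = 0.0243 and 0.0429). Pygo2, a coactivator in the beta-catenin complex, had 0 FPKM in all FoxM1-cKO injured libraries, against 1.83, 10.9 and 42.0 FPKM in FoxM1-cKO uninjured libraries. The groups overlap for Csnk2b and Aes.

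In the ligase list, Ddb1, the adaptor of Cul4, rose in both genotypes (6.90, limma adjusted p = 0.00224, in FoxM1-cKO, and 4.91, adjusted p = 0.0139, in FoxM1fl/fl mice). Eloc, an adaptor of Cul2 and Cul5 ligases, rose in FoxM1-cKO mice (5.61, adjusted p = 0.0026). Nedd8, the modifier that activates cullins, rose in FoxM1fl/fl mice (3.54, adjusted p = 0.0377), as did Dcun1d1 (2.76, adjusted p = 0.00542). Without being called, Nedd8 was also higher in FoxM1-cKO injured (7.65, 23.7 and 1.77 FPKM) than in FoxM1-cKO uninjured libraries (0 in all). Whether any gene responded to injury differently in the genotypes was tested for all 67, and 0 passed (limma; 13 had an unadjusted p under 0.05).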

How the data were processed

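The authors deposited 1 table of FPKM values per gene and library; per the labels the libraries were made from about 800 SCs with a single-cell RNA kit, and the submitters' processing notes name Bowtie 0.12.9, Cufflinks 2.1.1, HTSeq and mm10, with no role given for each. These FPKM values are not counts, so no count test was used. Groups came from the sample labels; the table's columns spell floxp where titles spell flxop. No column was left unmapped. Reads were recovered where a transcript length made all values under 150 reads whole. log2(FPKM + 1) was tested with limma 3.58.1 (R 4.3.3, trend, all 12 libraries in 1 fit), with Benjamini-Hochberg adjustment over 4956 genes at 0.05. The fit was tried on simulated normal values, which lack the many zeros of these data. Its error rate in data like these was not tested. Axin1 and Btrc had exact permutation tests (scipy 1.17.1). Positions and transcripts are from GENCODE release 21 for mouse (GRCm38). Named genes were all members and, from each other list, up to 6 called genes a comparison, or up to 2 with the smallest p where none was called, of which the text gives some. Members and lists were chosen with earlier results of these data known. Alternatives varied the pseudocount, filter, scaling, trend, weights, block and libraries. Columns of gene annotation were not used.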

Additional observations from a re-analysis of the deposited data

How the results depend on the processing

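Depth limits the uninjured libraries, where 36 of 60 member values were 0 and 3 reads over the FoxM1-cKO uninjured group are 0.418 FPKM of Apc or 1.25 FPKM of Tcf7l2. No called direction reversed under any alternative. The 76 genes called for FoxM1-cKO over FoxM1fl/fl uninjured were 158 at a pseudocount of 0.1, 29 at 5, 24 with no filter, 145 with quantile normalization, 0 with only the groups compared and 2152 with array weights, whose estimate stopped before it converged. After injury the 387 calls were 93 with no filter, 221 at 5 FPKM in 3 libraries, 137 with quantile normalization, 2 with only the groups compared and 1220 with array weights. For the effect injured minus uninjured the 54 calls were 308 at a pseudocount of 0.1, 182 at 5 FPKM, 146 without the trend, 2019 with array weights, and 0 at a pseudocount of 5, with no filter and with quantile normalization. For injury in FoxM1fl/fl the 1029 calls were 527 at a pseudocount of 5, 431 with no filter, 340 with quantile normalization and 4221 with array weights, and in FoxM1-cKO the 1215 were 741, 601 and 167 under the first 3 of these, 806 with median-ratio scaling and 687 with only the groups compared. Without the 3 weighted-sum libraries all 5 counts were 0, with 158, 461, 245, 654 and 1022 genes at an unadjusted p under 0.05 by limma, of which 0, 2, 1, 1 and 1 were members. The split of calls into higher and lower was 37 and 73 between uninjured genotypes with median-ratio scaling (43 and 33 as reported), and with quantile normalization it was 66 and 71 after injury (255 and 132), 172 and 168 for injury in FoxM1fl/fl (934 and 95) and 100 and 67 in FoxM1-cKO (1158 and 57), where it moved the median of all tested genes to 0.141 and 0.098 (1.51 and 1.68 as reported). After injury it was also turned round with array weights (523 and 697) and without FoxM1fl/fl injured replicate 1, 2 or 3 (48 and 55, 196 and 285, 268 and 457), and between uninjured genotypes without FoxM1fl/fl uninjured replicate 2 or 3 (40 and 149, 82 and 301). Of members, the 2 called after injury were 1 at a pseudocount of 5 and 0 with no filter, at 5 FPKM, with quantile normalization, with only the groups compared and without the 3 libraries. The 2 called for injury in FoxM1fl/fl were 1 at a pseudocount of 5, with no filter and at 5 FPKM, 6 with array weights, and 0 with quantile normalization and without the 3 libraries. The 1 called for injury in FoxM1-cKO became 2 at a pseudocount of 0.1 and with array weights, and 0 at 5 FPKM, with quantile normalization and without the 3 libraries. With only the groups compared both injury counts stayed the same but not the genes: Gsk3b (adjusted p = 0.0763) gave way to Csnk1a1 (0.0278) in FoxM1fl/fl, and Tcf7l2 (0.0603) to Skp1a (0.0294) in FoxM1-cKO. Where 0 were called, array weights called 6 between uninjured genotypes and 3 for the difference of effects, and a pseudocount of 0.1 called 2 for that difference. The 2 members below the filter became 0 with no filter and 4 at 5 FPKM, Apc and Tcf7l2 among them. Leaving out 1 library in turn gave, in the same order of comparisons, 18 to 383, 103 to 725, 0 to 438, 389 to 1480 and 606 to 1362 genes, and 0 to 1, 1 to 2, 0 to 2, 1 to 3 and 1 to 2 members. The replicate numbers did not pair the samples (correlation of deviations -0.032 to 0.054 for same-numbered and -0.064 to 0.071 for other pairs); with the replicate block the counts were 51, 313, 0, 959 and 1139, and the same number of members was called. Except for constructions that test fewer genes or libraries, the cause was not tested.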

Other observations

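Over the 12 libraries, among tested genes that averaged 5 FPKM or more, those whose log2(FPKM + 1) was most like that of Apc were Plekho1, Fundc2 and Myg1 (Pearson r of 0.98 each, n = 12 libraries), and those most like Ctnnb1 were Kbtbd2 (0.93), Pex5 (0.92) and Orc6 (0.91). Plekho1 had 0.726, 0 and 0.753 FPKM in FoxM1-cKO injured libraries, against 31.9, 31.5 and 61.6 FPKM in FoxM1fl/fl injured libraries, and 0 in all uninjured libraries. These values are a description: the libraries share their groups, their depths and, in 3 cases, the weighted-sum pattern.

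Some single values of the pathway were extreme within a group. Aes, a corepressor of TCF factors, had 0, 10500 and 19000 FPKM in FoxM1-cKO uninjured libraries, against 0.784, 0.734 and 0 FPKM in FoxM1fl/fl uninjured libraries. Csnk2b, the regulatory subunit of casein kinase II, had 0 in all FoxM1fl/fl injured libraries, against 629, 556 and 0 FPKM in FoxM1fl/fl uninjured libraries. In each of these pairs of high libraries, 1 is a weighted-sum library.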
